A study of Mus musculus with 3 samples.

Results

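The heat shock protein and DnaJ gene families were examined in mouse muscle on 3 single-colour Agilent arrays. Members were all non-control probes whose gene name in the scanner files began with Hspa, Hspb, Hspd, Hspe or Hsph, or with Dnaja, Dnajb or Dnajc, followed only by letters and digits. This rule uses no measured value, although it was chosen with earlier results of these data known. It gave 118 of 41169 probes and 58 of 27661 genes. The 3 groups were six-week-old male mice that swam and ate food with 0.5% Chlorella powder, mice that swam on normal food, and mice that did not swim on normal food. Chlorella is a unicellular green alga. After 14 days, muscle RNA of 10 mice was pooled for each group and hybridised to 1 array. Strain and which muscle was taken are not given in the sources used here. Among the 8 skeletal muscle fibre markers, all 8 were well above background on each array. With 1 pool and 1 array per group, the spread between mice was not measured, so no test was possible and no difference below has a replicate check.

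Heat shock proteins are molecular chaperones that bind unfolded or damaged proteins. Hsp70 proteins, encoded by Hspa genes, hold and release client proteins in a cycle driven by ATP, and DnaJ proteins, also called Hsp40 proteins, deliver clients and stimulate that ATP hydrolysis through their J domain. Small heat shock proteins, encoded by Hspb genes, need no ATP; muscle carries many of them, and several sit at the Z-disc or on actin and desmin filaments. Hsp60 and Hsp10, encoded by Hspd1 and Hspe1, form the folding chamber of the mitochondrial matrix. Contraction, heat and oxidation are known to raise several of these proteins in muscle, largely through the transcription factor HSF1.

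Each value is a processed signal in the scanner's intensity units, and a log2 ratio compares signals after each was divided by its array's 75th percentile. That percentile was 237.8 with Chlorella and swimming, 295.0 with swimming alone and 285.9 without swimming, so an equal signal on the Chlorella swimming array is a higher normalised value. A gene was represented by its brightest probe and counted as measured where that probe was well above background on both arrays. The scanner software gave an error of 10% per signal for most members, or 0.20 per log2 ratio of a bright probe. The error is larger for dim probes and includes no difference between mice. Of the 58 genes, 52 were above background on all 3 arrays. Dnajb7, Dnajb8, Dnajb13 and Dnajc5g were above background on none, Dnajc5b only on the Chlorella swimming array and Dnajc6 only on the swimming array.

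In swimming against nonswimming mice on normal food, the families as a whole lay slightly lower, and few members differed by much. Of 52 measured genes, 42 (80.8%) had a ratio below 0, against 55.1% of the 15659 genes measured on both arrays. The members' median log2 ratio was -0.19, with an interquartile range from -0.36 to -0.03, and that of all genes was -0.04, with an interquartile range from -0.21 to 0.18. Only Dnajb3 of the measured members was at least 2-fold higher, where 5.13% of all genes were, and no measured member was at least 2-fold lower, where 1.07% of all genes were. At 1.5-fold, 1 member was higher and 3 were lower (Hspb6, Hspbap1 and Dnajc2), against 9.34% and 4.4% of all genes. Beyond the 95% limits of the scanner error, which are those of a normal error of that size around 0, 2 members (3.85%) were higher and 10 (19.2%) lower, against 12.3% and 8.69% of all genes. Centring arrays on the median moved the median of all genes by about as much as that of the members, to -0.19 and -0.34; over all settings tried, the members' median stayed 0.05 to 0.15 below that of all genes. The number below 0 moved with the scaling, to 34 of 52 (65.4%) with cyclic loess, against 47% of all genes, and to 47 of 52 (90.4%) with median centring, against 73% of all genes.

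In swimming mice with Chlorella against swimming mice on normal food, 40 of 52 measured members (76.9%) had a ratio above 0, against 59.9% of 15507 genes. With cyclic loess it was 28 of 52 (53.8%), against 48.2% of all genes. The members' median log2 ratio was 0.14 and that of all genes 0.08. No measured member was at least 2-fold higher or lower, where 1.37% and 4.86% of all genes were. Dnajc5b, above background only with Chlorella, was at least 29.6-fold higher by 1 spot of 1 probe. Hspb7 and Hspb6 were at least 1.5-fold higher and Dnajb3 at least 1.5-fold lower, against 5.88% and 9.16% of all genes. Hspb7, Hspb6, Hspa2, Hspa1l, Hspbap1, Hspb1 and Dnajb5 were higher beyond the 95% limits of the scanner error (7 of 52 members, 13.5%, against 11.5% of all genes). Dnajb3 alone was lower beyond it (1.92% against 12.3%).

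With Chlorella and swimming against nonswimming on normal food, 26 members were above and 26 below 0 (50% above, against 54.7% of all genes), with a median log2 ratio of -0.01 against 0.04 over 15334 genes. Of 48 members in the authors' value table, 19 (39.6%) were above 0, against 49.6% of all genes there. No measured member was 2-fold higher or lower, where 2.07% and 1.49% of all genes were, and Dnajc5b was at least 25.6-fold higher by the same spot. Dnajb3 and Dnajc15 were at least 1.5-fold higher and Dnajb1 and Hspb8 at least 1.5-fold lower, against 6.63% and 5.76% of all genes. Beyond the 95% limits of the scanner error, 4 members (7.69%) were higher and 6 (11.5%) lower, against 12% and 10.1% of all genes. The 3 comparisons share arrays, so their values are set side by side and not related to each other.

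**Figure D1:**
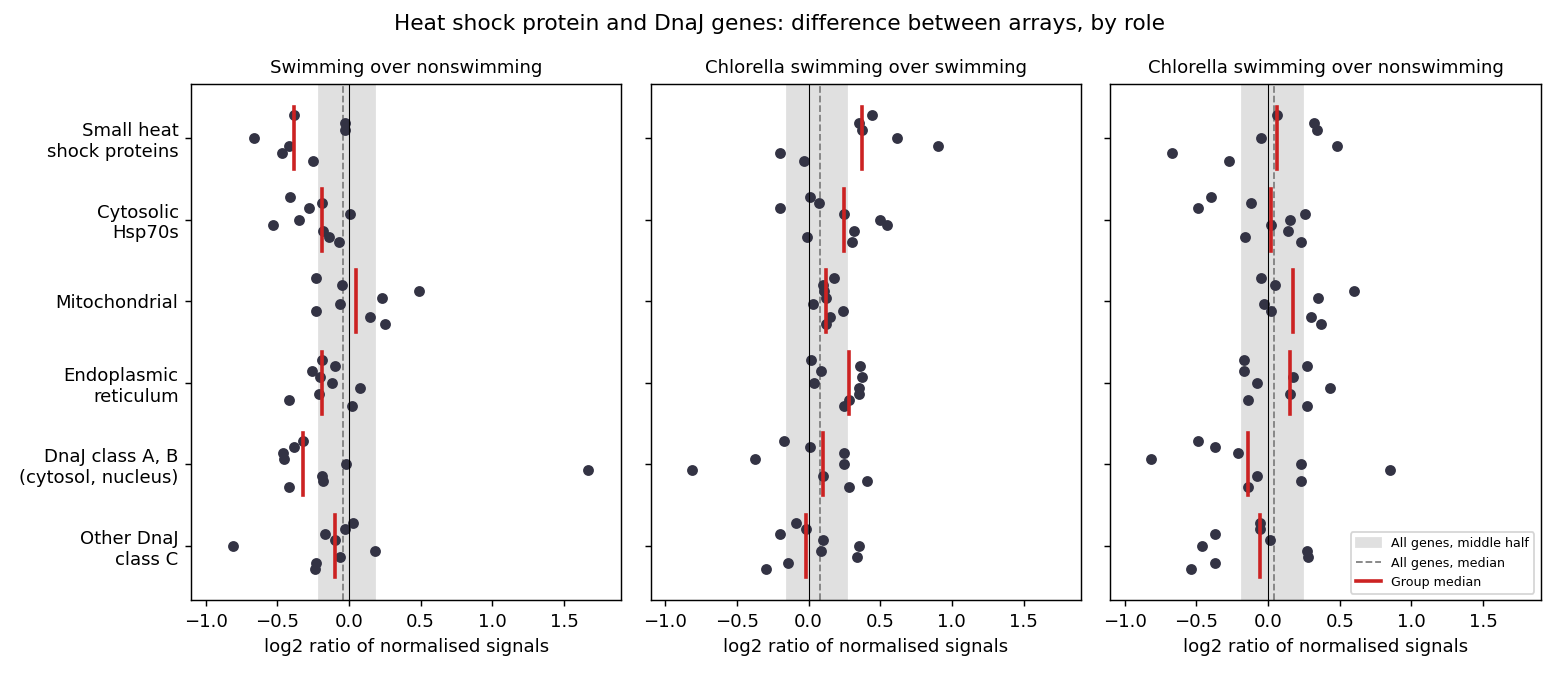
Log2 ratio of normalised signals of the measured member genes, grouped by role, in the 3 comparisons. Hspbap1, the only gene of its role, is not shown. Each point is 1 gene, the red line is the group's median, and the grey band and dashed line are the interquartile range and median of all measured genes. The small heat shock proteins lie to the left in swimming over nonswimming (median -0.38) and to the right in Chlorella swimming over swimming (median 0.37).

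Among roles with more than 1 gene, the small heat shock proteins had the median farthest from 0 when swimming mice were set against nonswimming mice and when Chlorella swimming mice were set against swimming mice. All 7 genes were measured in every comparison. Their median log2 ratio was -0.38 in swimming over nonswimming, 0.37 in Chlorella swimming over swimming, and 0.06 in Chlorella swimming over nonswimming. The first ranged from -0.53 to -0.28 and the second from 0.24 to 0.50 over the settings tried, while the third turned to -0.07 with quantile normalization and -0.01 with cyclic loess. In swimming over nonswimming all 7 lay below 0, although Hspb2 and Hspb3, both at -0.03, turned positive with cyclic loess, which left 5 of 7, and Hspb3 also with quantile normalization. Over all genes, 55.1% were below 0 in that comparison, or 47% with cyclic loess. Above 0 were 59.9% of all genes in Chlorella swimming over swimming (48.2% with cyclic loess) and 54.7% in Chlorella swimming over nonswimming. These shares also belong beside the counts of the other roles below.

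Hspb7 encodes a small heat shock protein of heart and skeletal muscle that protects large sarcomeric proteins such as filamin C. Its signal was 3167 with Chlorella and swimming, 2105 with swimming alone and 2737 without swimming. The log2 ratio was 0.90 in Chlorella swimming over swimming, the largest of any measured member in that comparison, and 0.48 in Chlorella swimming over nonswimming, against -0.42 in swimming over nonswimming. This probe was spotted 10 times on each array. On the log2 scale relative to the array's 75th percentile, its spots ran from 3.62 to 3.82 on the Chlorella swimming array, from 2.74 to 2.95 on the swimming array and from 3.15 to 3.34 on the nonswimming array. The 3 sets of spots did not overlap, with an SD between spots of 0.056 with Chlorella and swimming, 0.062 with swimming alone and 0.062 without swimming. Over all probes spotted 10 times and above background, the median SD was about the same, at 0.058, 0.063 and 0.066 on these arrays. The share of such probes whose sets do not overlap is not given here. The Hspb7 spots on an array are repeat spots of 1 pool, so they show the precision of the array and not the spread between mice. A second Hspb7 probe read 765.6 with Chlorella and swimming, 513.8 with swimming alone and 591.9 without swimming, with ratios of 0.89 in Chlorella swimming over swimming, 0.64 in Chlorella swimming over nonswimming and -0.25 in swimming over nonswimming.

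Dnajc11, a DnaJ protein of the mitochondrial membranes, was the other member spotted 10 times. Its spots ran from -0.41 to -0.15 on the Chlorella swimming array, from -0.49 to -0.20 on the swimming array and from -0.44 to -0.23 on the nonswimming array, and these sets overlapped. Its ratios were 0.10 in Chlorella swimming over swimming, 0.05 in Chlorella swimming over nonswimming and -0.05 in swimming over nonswimming.

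**Figure D2:**
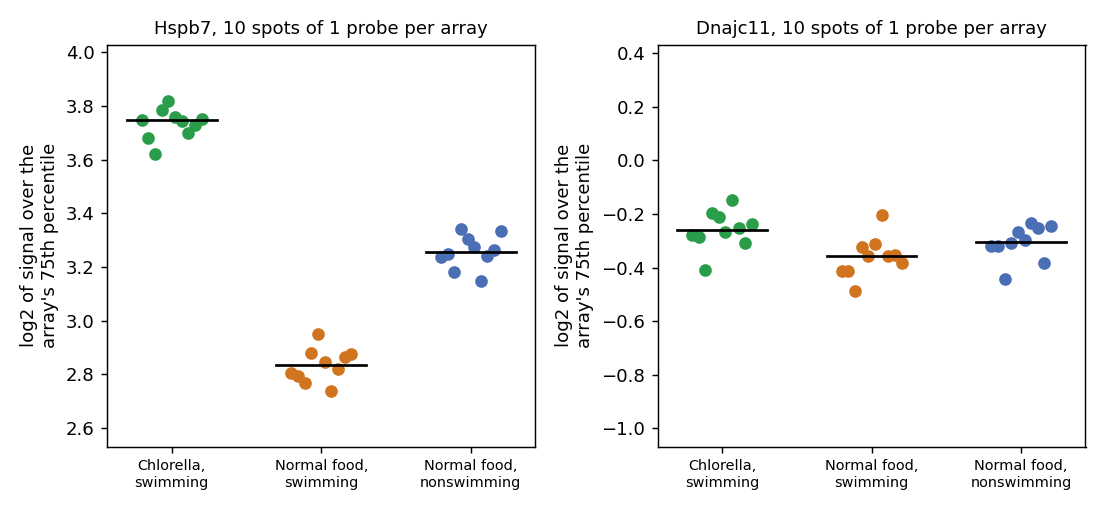
Log2 of the signal over the array's 75th percentile for the 10 repeat spots of the Hspb7 probe and of the Dnajc11 probe on each array. Points are spots and lines are medians. The Hspb7 spots form 3 separate sets with medians of 3.75, 2.83 and 3.26, whereas the Dnajc11 sets overlap. How many other probes spotted 10 times form separate sets is not given here.

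Hspb6, also called Hsp20, is an actin-associated small heat shock protein of muscle. Its signal was 3749 with Chlorella and swimming, 3036 with swimming alone and 4654 without swimming. The swimming array was therefore the lowest, with a log2 ratio of -0.66 over nonswimming and of 0.62 for Chlorella swimming over it, while Chlorella swimming over nonswimming was -0.05. Hspb1, the mouse Hsp25 that binds actin filaments, was also lowest there and read 7222 with Chlorella and swimming, 6582 with swimming alone and 8308 without swimming. Its log2 ratios were -0.38 in swimming over nonswimming, 0.44 in Chlorella swimming over swimming and 0.06 in Chlorella swimming over nonswimming, the last turning to -0.07 with quantile normalization. Hspb6 had a single probe, and a second Hspb1 probe, placed on another chromosome than the gene by the files, was above background on no array.

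Hspb8, or Hsp22, works with the co-chaperone Bag3 in chaperone-assisted autophagy of damaged muscle proteins. It went a different way from Hspb7 and Hspb6: its signal was 5941 with Chlorella and swimming, 8469 with swimming alone and 11391 without swimming. The log2 ratio was -0.67 in Chlorella swimming over nonswimming, from -0.79 to -0.67 over the settings tried. It was -0.47 in swimming over nonswimming, and the ratio of -0.20 in Chlorella swimming over swimming was no larger than the scanner error. Only 1 probe stood for Hspb8.

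Hspb2 and Hspb3 form a complex with each other in muscle. Hspb2 read 7999 with Chlorella and swimming, 7767 with swimming alone and 7702 without swimming, and Hspb3 read 4461 with Chlorella and swimming, 4281 with swimming alone and 4228 without swimming. Both were close to 0 in swimming over nonswimming, and their ratios in Chlorella swimming over swimming, 0.35 for Hspb2 and 0.37 for Hspb3, lay within the 95% limits of the scanner error. Hspb9, a testis-expressed member, was dim and read 18.45 with Chlorella and swimming, 23.29 with swimming alone and 26.79 without swimming, and its ratios lay between -0.27 and -0.03 with an error of up to 0.25.

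**Figure D3:**
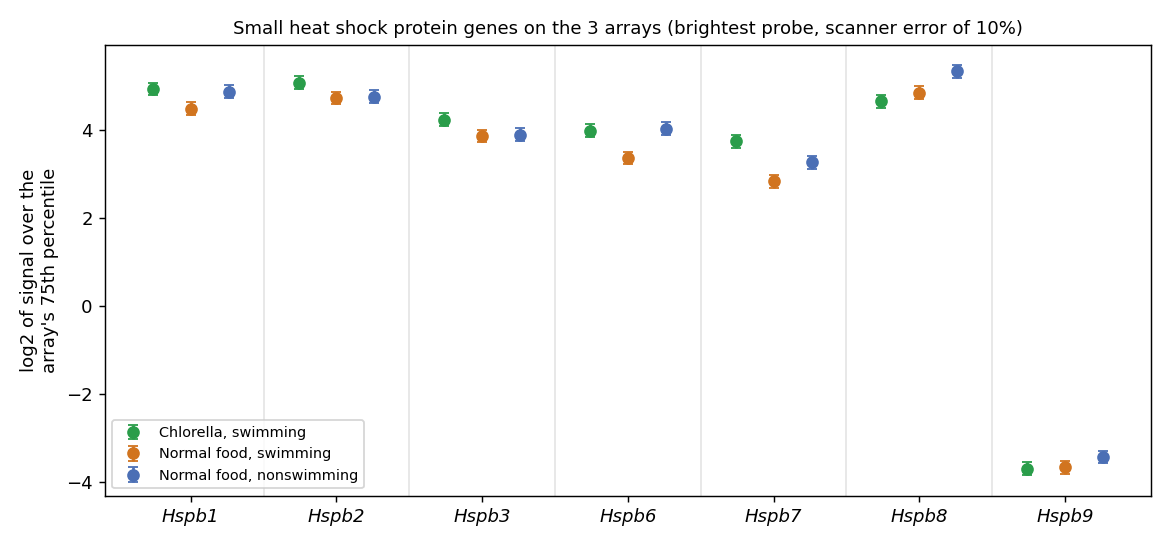
Log2 of the signal over the array's 75th percentile for the 7 small heat shock protein genes on the 3 arrays, brightest probe, with the scanner error of 10% as the bar. Levels are to be compared within a gene, not between genes. Hspb7 and Hspb6 are lowest on the swimming array and Hspb8 is lowest on the Chlorella swimming array.

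Among the 9 cytosolic Hsp70 and Hsp110 chaperones, none differed by 1.5-fold in any comparison by its brightest probe. With the mean over probes, Hspa4 passed 1.5-fold in Chlorella swimming over either array, as given below. The median log2 ratio of the 9 genes was -0.19 in swimming over nonswimming (8 of 9 below 0), 0.25 in Chlorella swimming over swimming (7 of 9 above 0, 5 of 9 with cyclic loess) and 0.02 in Chlorella swimming over nonswimming (5 of 9 above 0). Hspa1a is the classical stress-inducible Hsp70. Its signal was 1742 with Chlorella and swimming, 1814 with swimming alone and 1745 without swimming. The ratio was 0.01 in swimming over nonswimming, -0.14 with median centring, and 0.25 in Chlorella swimming over swimming. No ratio of Hspa1a passed the 95% limits of the scanner error, and its 4 probes ran from -0.16 to 0.10 in swimming over nonswimming. These probes may also bind the near-identical Hspa1b.

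Hspa8, the constitutive Hsc70 that assembles and clears proteins in unstressed cells, read 25972 with Chlorella and swimming, 26210 with swimming alone and 26600 without swimming. Its ratios were -0.07 in swimming over nonswimming, 0.30 in Chlorella swimming over swimming and 0.23 in Chlorella swimming over nonswimming. A second probe gave -0.33, 0.08 and -0.26, so the sign of the last depended on the probe. The files place both probes on chromosome 5, whereas RefSeq places the gene on chromosome 9.

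Hspa2 and Hspa1l, Hsp70 proteins best known from germ cells, were the cytosolic Hsp70 genes with the largest ratios. Hspa2 read 200.3 with Chlorella and swimming, 169.6 with swimming alone and 238.0 without swimming. That made 0.55 in Chlorella swimming over swimming, -0.53 in swimming over nonswimming and 0.02 in Chlorella swimming over nonswimming. Its second probe gave 0.39, -0.34 and 0.05 in these comparisons. Hspa1l, with 1 probe, read 392.9 with Chlorella and swimming, 345.4 with swimming alone and 426.9 without swimming, with ratios of 0.50 in Chlorella swimming over swimming and -0.35 in swimming over nonswimming. For both genes the swimming array was the lowest.

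Hspa14, a ribosome-associated Hsp70, read 1613 with Chlorella and swimming, 2304 with swimming alone and 2717 without swimming. It was lower in Chlorella swimming over nonswimming beyond the 95% limits of the scanner error (-0.49). Hspa4l, an Hsp110 protein, had ratios from -0.16 to -0.01 by its brightest probe, Hspa12b from -0.19 to 0.07, and Hspa12a, which was dim, from -0.41 to 0.01 with errors of up to 0.25.

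Hspa4, an Hsp110 protein that exchanges nucleotides on Hsp70, was one of the genes whose probes disagreed most. Its brightest probe read 1387 with Chlorella and swimming, 1374 with swimming alone and 1509 without swimming, with ratios of 0.32 in Chlorella swimming over swimming, 0.14 in Chlorella swimming over nonswimming and -0.18 in swimming over nonswimming. Another probe read 1073 with Chlorella and swimming, 720.8 with swimming alone and 419.2 without swimming, with ratios of 0.88, 1.62 and 0.74 in the same comparisons. One more probe read 149.9 with Chlorella and swimming, 85.74 with swimming alone and 95.26 without swimming, with ratios of 1.12, 0.92 and -0.20 in these comparisons. All measured probes were above 0 in Chlorella swimming over either array, but their size differed by up to 1.48 log2. With the mean over probes, Hspa4 was at 0.78, 0.90 and 0.12 in these 3 comparisons. Which transcripts the separate probes detect was not tested.

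The widest range between probes of 1 gene was 0.94 log2 in swimming over nonswimming and 1.48 in Chlorella swimming over nonswimming, both for Hspa4, and 1.04 in Chlorella swimming over swimming, for Dnajc16. Among the 31 genes with several measured probes, 10 had probes of both signs in swimming over nonswimming, 10 in Chlorella swimming over swimming and 11 in Chlorella swimming over nonswimming. The median range between probes was 0.25, 0.18 and 0.22 log2 in these comparisons, about the scanner error. Counted by probe, 101 of the 118 were measured. At least 2-fold higher were 1 probe in swimming over nonswimming (4.33% of all probes), 3 in Chlorella swimming over swimming (1.52%) and 3 in Chlorella swimming over nonswimming (2.14%). At least 2-fold lower were none in the first (1.08% of all probes), none in the second (4.09%) and 2 in the third (1.42%).

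**Figure D4:**
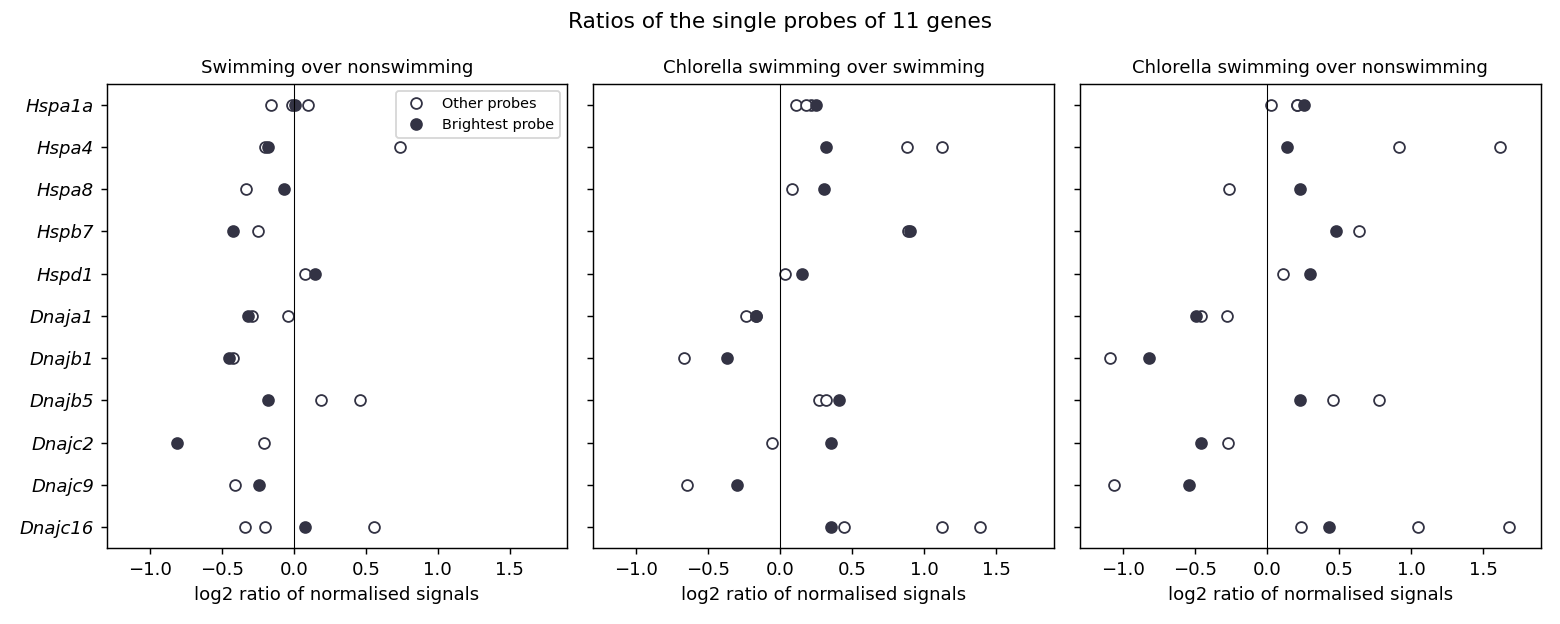
Log2 ratio of normalised signals of every measured probe of 11 member genes in the 3 comparisons; filled points are the brightest probe and open points the other probes. The Hspb7 probes lie close together in Chlorella swimming over swimming (0.90 and 0.89), whereas in Chlorella swimming over nonswimming those of Hspa4 run from 0.14 to 1.62 and those of Dnajc16 from 0.24 to 1.68.

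The mitochondrial chaperones lay near or above the median of all genes. Of 8 genes, all measured, the median log2 ratio was 0.05 in swimming over nonswimming, though -0.10 with median centring, 0.12 in Chlorella swimming over swimming, though -0.02 with cyclic loess, and 0.18 in Chlorella swimming over nonswimming, from 0.05 to 0.18 over the settings. In Chlorella swimming over swimming all 8 were above 0, at 0.03 to 0.24, but 4 of 8 with quantile normalization and 3 of 8 with cyclic loess, where Hspd1, Hspe1, Dnajc15 and Dnajc19 were below 0.

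Dnajc15, a DnaJ protein of the inner mitochondrial membrane that takes part in protein import, had the largest ratios of this group. Its signal was 14147 with Chlorella and swimming, 16240 with swimming alone and 11185 without swimming. The log2 ratio was 0.60 in Chlorella swimming over nonswimming and 0.49 in swimming over nonswimming, so both swimming arrays lay above the nonswimming array, and 0.11 in Chlorella swimming over swimming. Dnajc19, a related import protein, read 16894 with Chlorella and swimming, 19297 with swimming alone and 15991 without swimming, with ratios of 0.35 in Chlorella swimming over nonswimming and 0.23 in swimming over nonswimming. Its dimmer probes gave 0.11 and -0.28 in Chlorella swimming over nonswimming, and the mean over probes 0.06.

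Hspd1 and Hspe1 encode Hsp60 and Hsp10. Hspd1 read 17152 with Chlorella and swimming, 19114 with swimming alone and 16697 without swimming. Hspe1 read 5218 with Chlorella and swimming, 5946 with swimming alone and 4843 without swimming. Their ratios were 0.30 for Hspd1 and 0.37 for Hspe1 in Chlorella swimming over nonswimming, and 0.15 and 0.25 in swimming over nonswimming, all within the 95% limits of the scanner error. Hspa9, the mitochondrial Hsp70 mortalin, read 14830 with Chlorella and swimming, 15527 with swimming alone and 17636 without swimming, with ratios of 0.24 in Chlorella swimming over swimming, -0.23 in swimming over nonswimming and 0.02 in Chlorella swimming over nonswimming. Dnaja3, its mitochondrial DnaJ partner, read 5045 with Chlorella and swimming, 5522 with swimming alone and 6265 without swimming, with 0.18, -0.23 and -0.05 in these comparisons.

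Hspd1 and Hspe1 lie head to head and share a promoter. They were also among the few members whose promoter held an exact match to the full heat shock element, which HSF1 binds. RefSeq promoters of assembly GRCm38.p6, from 250 bases before to 50 after each start, were found for 49 of the 58 genes, 65 promoters in all. The element was searched on both strands as the units GAA, TTC and GAA or TTC, GAA and TTC, with any 2 bases between neighbouring units, and these forms are each other's reverse complement. Only exact matches in this window were searched, so a promoter without a match may still hold an HSF1 site. An exact match occurred in 4 of the 65 promoters (6.15%), those of Hspd1, Hspe1 and Dnajb6, against 198 of all 32851 promoters (0.603%). The Hspd1 and Hspe1 entries are the same bases read on opposite strands, chr1:55088039-55088096, and Dnajb6 has 2 starts that share chr5:29735832-29735884 on the plus strand. The stretches are shown because they carry the element, which is in capitals; in Hspd1 and Hspe1 the capitals cover 2 overlapping matches.
Hspd1: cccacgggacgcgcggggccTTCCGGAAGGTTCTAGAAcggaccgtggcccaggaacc
Hspe1: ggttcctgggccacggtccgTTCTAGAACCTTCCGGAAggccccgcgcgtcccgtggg
Dnajb6: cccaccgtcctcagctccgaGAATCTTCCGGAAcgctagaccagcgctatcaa
The Hspd1 matches begin 144 and 139 bases before its start, those of Hspe1 89 and 84 bases before its own, and the Dnajb6 match 127 or 46 bases before, depending on the start. The shorter element of 2 such units, GAA and TTC in either order, each a palindrome and contained in the longer one, was in 14 of the 65 promoters (21.5%) against 15.1% of all promoters. The 3 genes with the full element had median log2 ratios of 0.15 in swimming over nonswimming, 0.15 in Chlorella swimming over swimming and 0.30 in Chlorella swimming over nonswimming. The 41 measured genes whose promoters lacked an exact match had medians of -0.19, 0.11 and -0.05. With 3 genes, 2 of which share 1 element, this is a description of letters and ratios, not evidence of binding.

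The chaperones of the endoplasmic reticulum were measured for all 9 genes, and none differed by 1.5-fold by its brightest probe. With the mean over measured probes, Dnajc16 passed it, at 0.82 in Chlorella swimming over swimming and 0.85 in Chlorella swimming over nonswimming. The median log2 ratio of the 9 genes was 0.28 in Chlorella swimming over swimming, where all 9 were above 0, but 7 of 9 with quantile normalization, cyclic loess, normexp or the percentile over probes above background. It was -0.19 in swimming over nonswimming (7 of 9 below 0) and 0.15 in Chlorella swimming over nonswimming (5 of 9 above 0). Hspa5, or BiP, is the Hsp70 of this compartment and the usual marker of the unfolded protein response. It read 7758 with Chlorella and swimming, 8113 with swimming alone and 7762 without swimming, with ratios of 0.25 in Chlorella swimming over swimming, 0.27 in Chlorella swimming over nonswimming and 0.02 in swimming over nonswimming. Dnajb9, another target of that response, read 651.9 with Chlorella and swimming, 758.2 with swimming alone and 882.1 without swimming, with 0.09, -0.17 and -0.26 in these comparisons, and Dnajb11, a BiP co-chaperone, read 2604 with Chlorella and swimming, 3188 with swimming alone and 3526 without swimming, with 0.02, -0.17 and -0.19. No difference among these 3 genes passed the 95% limits of the scanner error.

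Dnajc3, or p58IPK, binds BiP clients, and it shares a promoter element with Hspa5. Its signal was 558.8 with Chlorella and swimming, 570.0 with swimming alone and 740.5 without swimming, with -0.42 in swimming over nonswimming. The other Dnajc3 probes gave -0.35, -0.49 and 0.01 there, so their signs were mixed. The endoplasmic reticulum stress element, searched on both strands as CCAAT, any 9 bases and CCACG, was in 2 of the 65 promoters (3.08%), those of Hspa5 and Dnajc3, against 39 of all promoters (0.119%). Both stretches are on the plus strand of GRCm38.p6, chr2:34772005-34772063 and chr14:118937807-118937865, and are shown with the element in capitals.
Hspa5: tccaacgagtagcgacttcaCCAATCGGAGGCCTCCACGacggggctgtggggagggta
Dnajc3: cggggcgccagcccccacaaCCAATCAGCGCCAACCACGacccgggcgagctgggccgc
The elements begin 65 bases before the Hspa5 start and 105 bases before the Dnajc3 start. Dnajc16 was the endoplasmic reticulum gene with the widest probe range. Its brightest probe read 385.5 with Chlorella and swimming, 374.8 with swimming alone and 344.1 without swimming, with 0.35 in Chlorella swimming over swimming. A similar probe gave 0.44, and a pair of dim probes gave 1.39 and 1.12 there, with errors of 0.23 and 0.27. In Chlorella swimming over nonswimming the 4 probes ran from 0.24 to 1.68. All 4 were above 0 in Chlorella swimming over swimming.

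The class A and class B DnaJ proteins of cytosol and nucleus, the main partners of cytosolic Hsp70, were measured for 9 of 12 genes. Their median log2 ratio was -0.32 in swimming over nonswimming (8 of 9 below 0, from -0.47 to -0.20 over the settings) and 0.10 in Chlorella swimming over swimming, though -0.01 with quantile normalization and -0.02 with cyclic loess. It was -0.14 in Chlorella swimming over nonswimming, though 0.05 with no filter on dim probes.

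Dnajb1, the stress-inducible Hsp40, had the lowest ratio of all measured members in Chlorella swimming over nonswimming. Its signal was 1480 with Chlorella and swimming, 2367 with swimming alone and 3133 without swimming, a log2 ratio of -0.82, and from -0.97 to -0.82 over the settings. The swimming array lay between the other arrays, with -0.45 in swimming over nonswimming and -0.37 in Chlorella swimming over swimming. A second probe read 132.6 with Chlorella and swimming, 261.2 with swimming alone and 339.7 without swimming, with ratios of -1.09, -0.42 and -0.67 in these comparisons, so both probes had the same order of arrays. Dnaja1, a DnaJ protein that acts with Hsc70, had the same order and read 1490 with Chlorella and swimming, 2074 with swimming alone and 2508 without swimming, with a ratio of -0.49 in Chlorella swimming over nonswimming, and its other measured probes gave -0.46 and -0.28.

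The other bright genes of this class differed less. Dnajb2, found in the cytosol and nucleus of neurons and muscle, read 3423 with Chlorella and swimming, 3576 with swimming alone and 3514 without swimming, with ratios from -0.02 to 0.25. Dnajb4 read 2775 with Chlorella and swimming, 3207 with swimming alone and 3534 without swimming, with ratios from -0.19 to 0.10. Dnaja4 and Dnajb6 were lower in swimming over nonswimming beyond the 95% limits of the scanner error, at -0.46 for Dnaja4 and -0.42 for Dnajb6. The other Dnaja4 probe gave -0.57 there, but the other Dnajb6 probes gave -0.20 each, within those limits. Dnajb6 is a DnaJ protein of the Z-disc, and its human gene is mutated in a limb-girdle muscular dystrophy. Dnajb5 was higher in Chlorella swimming over swimming at 0.41, and its other probes gave 0.27 and 0.32.

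Dnajb3, a testis DnaJ gene, was the only member past 2-fold among those above background on both arrays of a comparison. It was dim: its signal was 12.44 with Chlorella and swimming, 27.16 with swimming alone and 8.297 without swimming, where the lowest signals called well above background were 6.26 with Chlorella and swimming, 5.78 with swimming alone and 6.45 without swimming. The log2 ratio was 1.67 ± 0.35 (scanner error) in swimming over nonswimming, -0.81 ± 0.28 in Chlorella swimming over swimming and 0.85 ± 0.38 in Chlorella swimming over nonswimming. With normexp background correction these were 0.33, -0.08 and 0.25, and with a minimum signal of 50 the gene was not counted. There was 1 probe.

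The other class C DnaJ proteins were measured for 9 of 12 genes, with a median log2 ratio of -0.10 in swimming over nonswimming, -0.02 in Chlorella swimming over swimming, though 0.11 with median centring, and -0.06 in Chlorella swimming over nonswimming. Dnajc2, a DnaJ protein of the ribosome, read 562.7 with Chlorella and swimming, 547.6 with swimming alone and 928.7 without swimming. Its ratio in swimming over nonswimming was -0.81, the lowest of the measured members, yet a second probe gave -0.21 and the authors' value table -0.50. Dnajc9, a histone chaperone, was lower in Chlorella swimming over nonswimming at -0.54, with signals of 1766 with Chlorella and swimming, 2695 with swimming alone and 3085 without swimming, and its second probe gave -1.06. Dnajc7, which links Hsp70 and Hsp90, read 3206 with Chlorella and swimming, 3147 with swimming alone and 3173 without swimming, with 0.34 in Chlorella swimming over swimming, and Dnajc8, a nuclear protein, read 3485 with Chlorella and swimming, 4750 with swimming alone and 5409 without swimming, with -0.37 in Chlorella swimming over nonswimming. Hspbap1, which matched by name and encodes a protein that binds Hspb1, read 217.6 with Chlorella and swimming, 194.3 with swimming alone and 328.7 without swimming, with -0.80 in swimming over nonswimming, 0.47 in Chlorella swimming over swimming and -0.33 in Chlorella swimming over nonswimming.

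Dnajc5b, which encodes a cysteine string protein, stood apart. A probe for it read 137.6 with Chlorella and swimming, 1.184 with swimming alone and 1.328 without swimming, where only the first was well above background. Against the lowest signal called well above background, Chlorella swimming was at least 29.6-fold higher than swimming on normal food, and at least 25.6-fold higher than nonswimming. The other Dnajc5b probe read 1.238 with Chlorella and swimming, 1.143 with swimming alone and 1.278 without swimming and was above background on no array. On the Chlorella swimming array the bright spot's pixels had a coefficient of variation of 18%, against a median of 13.3% and a 95th percentile of 17.9% over 6589 spots. Whether the 1 spot reflects the transcript was not tested. Dnajc6, auxilin, uncoats clathrin vesicles with Hsc70. It read 4.158 with Chlorella and swimming, 13.20 with swimming alone and 6.947 without swimming, and was above background only on the swimming array. The plain ratio of swimming over nonswimming was 1.84-fold, or 0.88 ± 0.38 log2 (scanner error), and is not a lower limit.

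Outside the members, a list of 59 genes held other chaperones, co-chaperones, the heat shock factors and the protease subunit Clpp. Of these, 57 were measured. In swimming over nonswimming 46 (80.7%) were below 0, against 55.1% of all genes, and 37 (64.9%) with cyclic loess, against 47%. None of those measured differed by 2-fold, where 5.13% of all genes were higher and 1.07% lower. The median log2 ratio was -0.14. In Chlorella swimming over swimming 44 (77.2%) were above 0, against 59.9% of all genes, and 31 (54.4%) with cyclic loess, against 48.2%. The median of the listed genes was 0.14, and 1 gene was 2-fold higher, where 1.37% of all genes were. In Chlorella swimming over nonswimming the median was 0.03 and none of those measured differed by 2-fold, where 2.07% of all genes were higher and 1.49% lower. Cryaa, alpha A-crystallin of the lens, was well above background only without swimming and read 2.128 with Chlorella and swimming, 3.274 with swimming alone and 41.24 without swimming. It was at least 5.48-fold lower in Chlorella swimming than in nonswimming mice and at least 7.36-fold lower in swimming than in nonswimming mice. Fkbp5, an Hsp90 co-chaperone and a well-known glucocorticoid target, was the gene past 2-fold, with 339.5 with Chlorella and swimming, 185.2 with swimming alone and 248.3 without swimming, a ratio of 1.19 in Chlorella swimming over swimming, and 1.51 and 2.48 by its other probes. Bag3, the partner of Hspb8, read 7094 with Chlorella and swimming, 5092 with swimming alone and 6834 without swimming. Its ratio was 0.79 in Chlorella swimming over swimming, 0.71 by a second probe, and -0.47 in swimming over nonswimming. The swimming array was thus the lowest for Bag3, as it was for Hspb7 and Hspb6. Cryab, alpha B-crystallin, read 23322 with Chlorella and swimming, 20885 with swimming alone and 27057 without swimming, with 0.47 in Chlorella swimming over swimming, -0.42 in swimming over nonswimming and 0.05 in Chlorella swimming over nonswimming.

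Hsf1, the heat shock factor, read 2978 with Chlorella and swimming, 3433 with swimming alone and 6155 without swimming by its brightest probe, with -0.78 in Chlorella swimming over nonswimming and -0.89 in swimming over nonswimming. Its other probes gave 0.22 and 0.09 in the first and 0.05 and -0.04 in the second, so only 1 of 3 probes differed. Of the Hsp90 genes, Hsp90ab1 read 27806 with Chlorella and swimming, 29813 with swimming alone and 38819 without swimming, with -0.43 in swimming over nonswimming, and Hsp90aa1 read 4463 with Chlorella and swimming, 5739 with swimming alone and 5701 without swimming, with ratios from -0.09 to -0.04. A set of 11 genes, which shares Hspbp1 with the list of 59, carries a current name of the members' pattern but another name in the files. These 11 genes are not members. Among them Dnajc22 was dim and read 11.35 with Chlorella and swimming, 38.08 with swimming alone and 13.83 without swimming. Its ratio was 1.42 ± 0.29 (scanner error) in swimming over nonswimming and -1.43 ± 0.31 in Chlorella swimming over swimming, and it was the only one of the 11 past 2-fold. Hsph1, the stress-inducible Hsp110, read 4094 with Chlorella and swimming, 3771 with swimming alone and 4180 without swimming, with 0.43 in Chlorella swimming over swimming and -0.19 in swimming over nonswimming.

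The arrays also differed in markers of cells other than muscle fibres, given as summed signals over the array's 75th percentile. The 8 muscle fibre markers summed to 4.74e+03 with Chlorella and swimming, 3.62e+03 with swimming alone and 4.49e+03 without swimming, so the swimming array was lowest, as for Hspb7, Hspb6 and Bag3. Their median log2 ratio was 0.36 in Chlorella swimming over swimming and -0.14 in swimming over nonswimming, with 8 of 8 above and 8 of 8 below 0. Over all genes, 59.9% were above 0 in the first and 55.1% below 0 in the second. The 8 neutrophil markers summed to 3.39 with Chlorella and swimming, 278 with swimming alone and 16.5 without swimming, and 7, 8 and 8 of them were above background on these arrays. The 6 erythroid markers summed to 2.0 with Chlorella and swimming, 15.5 with swimming alone and 3.33 without swimming. The 5 adipocyte markers summed to 192 with Chlorella and swimming, 390 with swimming alone and 182 without swimming. The 5 macrophage markers summed to 42.9 with Chlorella and swimming, 114 with swimming alone and 78.7 without swimming. In swimming over nonswimming, however, their median log2 ratio was 0.03, with 3 above and 2 below 0. Lyz2, the brightest, had the highest ratio there, at 0.56. The 6 B cell markers summed to 0.341 with Chlorella and swimming, 5.53 with swimming alone and 0.513 without swimming, the 5 genes of dividing cells to 0.97 with Chlorella and swimming, 8.5 with swimming alone and 1.08 without swimming, and the 2 brown adipocyte markers to 27.4 with Chlorella and swimming, 64.9 with swimming alone and 7.84 without swimming. The 6 keratinocyte markers were highest without swimming and summed to 2.16 with Chlorella and swimming, 1.89 with swimming alone and 7.75 without swimming. These sums include markers not above background. In the same order of arrays, 2, 6 and 4 erythroid markers and 3, 6 and 5 B cell markers were above background. So were 4, 5 and 6 keratinocyte markers and 4, 5 and 5 genes of dividing cells. The 7 immediate-early genes summed to 348 with Chlorella and swimming, 152 with swimming alone and 144 without swimming, but they did not move together. In Chlorella swimming over swimming 5 were above 0 and 2 below, Fos at -0.55 and Egr1 at -1.02. In swimming over nonswimming 4 were above 0 and 3 below, from -0.88 for Atf3 to 1.38 for Egr1. The 5 slow fibre markers summed to 439 with Chlorella and swimming, 408 with swimming alone and 308 without swimming. By gene, 4 of these 5 were below 0 in Chlorella swimming over swimming, with a median log2 ratio of -0.39. Only Myl3, the brightest and so the main part of the sum, was above 0 there, at 0.30. In swimming over nonswimming the median of these 5 genes was 1.41, with 4 above 0 and Myl3 below, at -0.09. In Chlorella swimming over nonswimming it was 1.01, with all 5 above 0. Above 0 in these comparisons were 44.9% and 54.7% of all genes. The 5 glucocorticoid-responsive genes, Fkbp5 among them, summed to 326 with Chlorella and swimming, 75.3 with swimming alone and 85.1 without swimming. The part of these cells and markers in the members' ratios was not tested, and in such bulk RNA fewer cells of a type cannot be told apart from less RNA per cell.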

How the data were processed

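Each group's pooled muscle RNA was labelled with Cy3 and hybridised to 1 array, per the labels' protocols. The deposited scanner files hold intensity values, namely processed signals corrected for background, with errors and flags. The submitters' processing notes name Agilent Feature Extraction 9.5. Per the file headers all arrays lay on 1 slide in 1 scan, at 3 positions. The authors' deposited value table holds log2 values whose differences had an r of 0.76, 0.82 and 0.71 with those of the scanner signals. Of the spot differences, 55.9% to 56.6% were the scanner's plus a constant within 0.01, and what was done to the others is unknown. It follows the signal's direction, its column medians were 0.010, -0.005 and 0.008 (Chlorella swimming, swimming, nonswimming), and its centring is unknown. It served as an alternative.

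Control spots and outlier flags were left out, spots of a probe were averaged, and log2 of the signal minus each array's 75th percentile was used, with no pseudocount. No probe was saturated. Of the member probes, 92 were named by accession and 26 by symbol through RefSeq (GRCm38.p6). Hspa9 and Dnajb2 are named Hspa9a and Dnajb10 in the files. For a gene above background on a single array, an "at least" fold sets its value over the dim array's lowest signal above background. Where the dim probe's own signal was higher than that, as for Dnajc6 without swimming, the plain ratio is given. Ratios were computed with Python 3.11.15 and pandas 2.3.3, alternatives with limma 3.58.1 in R 4.3.3, and the steps were tested on simulated data. Precision is limited by the number of arrays.

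Named genes were all Hspa, Hspb, Hspd and Hspe members, DnaJ genes past 1.5-fold, the 8 brightest DnaJ genes and DnaJ genes with bounds of at least 2-fold. Genes past 1.5-fold in the list outside the members were named too. Other genes in the text were chosen after their values were seen. Members and lists were chosen with earlier results of these data known.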

Additional observations from a re-analysis of the deposited data

How the results depend on the processing

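No paired analysis was possible because each group had 1 array and no result came from a test. The settings tried were the authors' value table, the mean of a gene's probes, no filter, a minimum signal of 50, normexp with an offset of 50, and scaling by quantiles, cyclic loess, the median or the 75th percentile of probes above background. Counts were also made at 1.5-fold and with the 95% limits of the scanner error. The members' median log2 ratio ranged from -0.34 to -0.12 in swimming over nonswimming, from 0.04 to 0.27 in Chlorella swimming over swimming, and from -0.07 to 0.02 in Chlorella swimming over nonswimming. Counts of members past the fold rule are small and moved by 1 to 3 genes. In swimming over nonswimming, the 1 member 2-fold higher became 0 with normexp, 0 with the minimum signal and 2 with no filter, and 3 were lower at 1.5-fold. In Chlorella swimming over swimming, the 0 higher became 1 with median centring (Hspb7, at 1.03), 2 with no filter and 2 at 1.5-fold, and the 0 lower became 1 with no filter and 1 at 1.5-fold. In Chlorella swimming over nonswimming, the 0 higher became 2 with no filter and 2 at 1.5-fold, and the 0 lower became 2 at 1.5-fold. Of 927 values of named genes under other settings, 904 moved by less than the scanner error and 23 by more, among them Hspa4 with the mean over probes, Dnajb3 with normexp, and Hsf1 with the authors' table (0.07 in Chlorella swimming over nonswimming). All 162 values of role groups moved by less than that error. The cause of these moves was not tested. Signal over background limits the dim members: Dnajb3, Hspb9, Hspa12a, Dnajc5b and Dnajc6.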
